A study of Saccharomyces cerevisiae with 4 samples.

Results

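The small subunit (SSU) processome and the factors that act with it build the 40S subunit of the yeast ribosome, and 42 of their genes are described here as a group named by function. They were taken by systematic name from the 6207 open reading frames (ORFs) of the deposited table. Of the 42 genes, 37 had a value on each of the 4 arrays, UTP22 had 3 values, ENP2 and DHR2 had 2, SOF1 had 1 and UTP20 (YBL004W) had 0.

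The cells were wild-type Saccharomyces cerevisiae kept at 24 °C in YEPD, a rich medium. After dilution a culture grew for 2 h 30 min and was then divided. One portion received Zymolyase 100T, a mix of enzymes that breaks down wall glucan, at 5 units/ml for 3 h, and the other portion received none. RNA of 2 such cultures was compared on 4 two-colour arrays, with a dye-swapped pair of arrays for each culture. The RNA of treated cells was labelled with Cy3 on arrays 1 and 3, and with Cy5 on arrays 2 and 4. The labels name neither the strain background nor the arrays that come from the same culture.

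In yeast, ribosomal RNA is transcribed in the nucleolus as a long precursor, and the SSU processome assembles on this precursor while it is still being made. The particle holds the U3 small nucleolar RNA and many proteins that arrive as preformed modules called UTP-A, UTP-B and UTP-C, together with the Mpp10 complex. It folds the precursor and allows the cuts that release the RNA of the small subunit. As background, genes of ribosome assembly are known in yeast to be expressed together at rates that follow growth, and their transcripts drop in many kinds of stress.

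Values are log2 ratios between treated and untreated cells, and all 4 arrays were turned to run the same way by the dyes in the labels. The labels do not name the numerator, so the sign was set by SLT2 (YHR030C), the protein kinase gene of the cell wall integrity pathway, which had 2.14, 2.39, 2.18 and 2.31 on arrays 1 to 4. A positive value therefore lies on the side of SLT2 and a negative value opposite to it. SLT2 is known to be induced by wall damage, and with that knowledge a negative value would mean a lower level after Zymolyase, which these values do not settle. The log base is not stated and was taken as 2, so each fold rests on that reading. A ratio from whole cultures cannot tell less of a transcript in each cell from fewer cells that carry it.

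Nearly the whole group lay opposite to SLT2 by a small amount. Of the 37 genes with 4 values, 36 had a mean below 0, against 56.7% of all 4543 ORFs with 4 values, and 22 were below 0 on each of the 4 arrays, against 15.3% of those ORFs. The median over the 37 genes was -0.33, with quartiles of -0.42 and -0.19. Over all ORFs with 4 values the median was -0.03, with quartiles of -0.16 and 0.11. No gene of the group with 4 values reached a 2-fold difference, and 55 of the 4543 ORFs had a lower mean than PWP2, the lowest of the 37.

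Few single genes passed the test. In limma, with the arrays of a culture averaged first, both possible pairings of arrays fitted, the larger p kept and Benjamini-Hochberg adjustment over 4543 ORFs, 3 of the 37 genes were past an adjusted p of 0.05 opposite to SLT2, where 1.39% of all ORFs tested were. On the side of SLT2 there were 0 of 37, against 4.56% of all ORFs tested. At an unadjusted p under 0.05, 22 of the 37 lay opposite to SLT2, against 9.00% of all ORFs tested. The count depended on the pairing, and was 26 opposite to SLT2 and 1 on its side when array 1 was paired with array 4 and array 2 with array 3, where 13.9% and 13.2% of all ORFs tested were past the threshold. It was 3 and 0 when array 1 was paired with array 2 and array 3 with array 4.

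**Figure D1:**
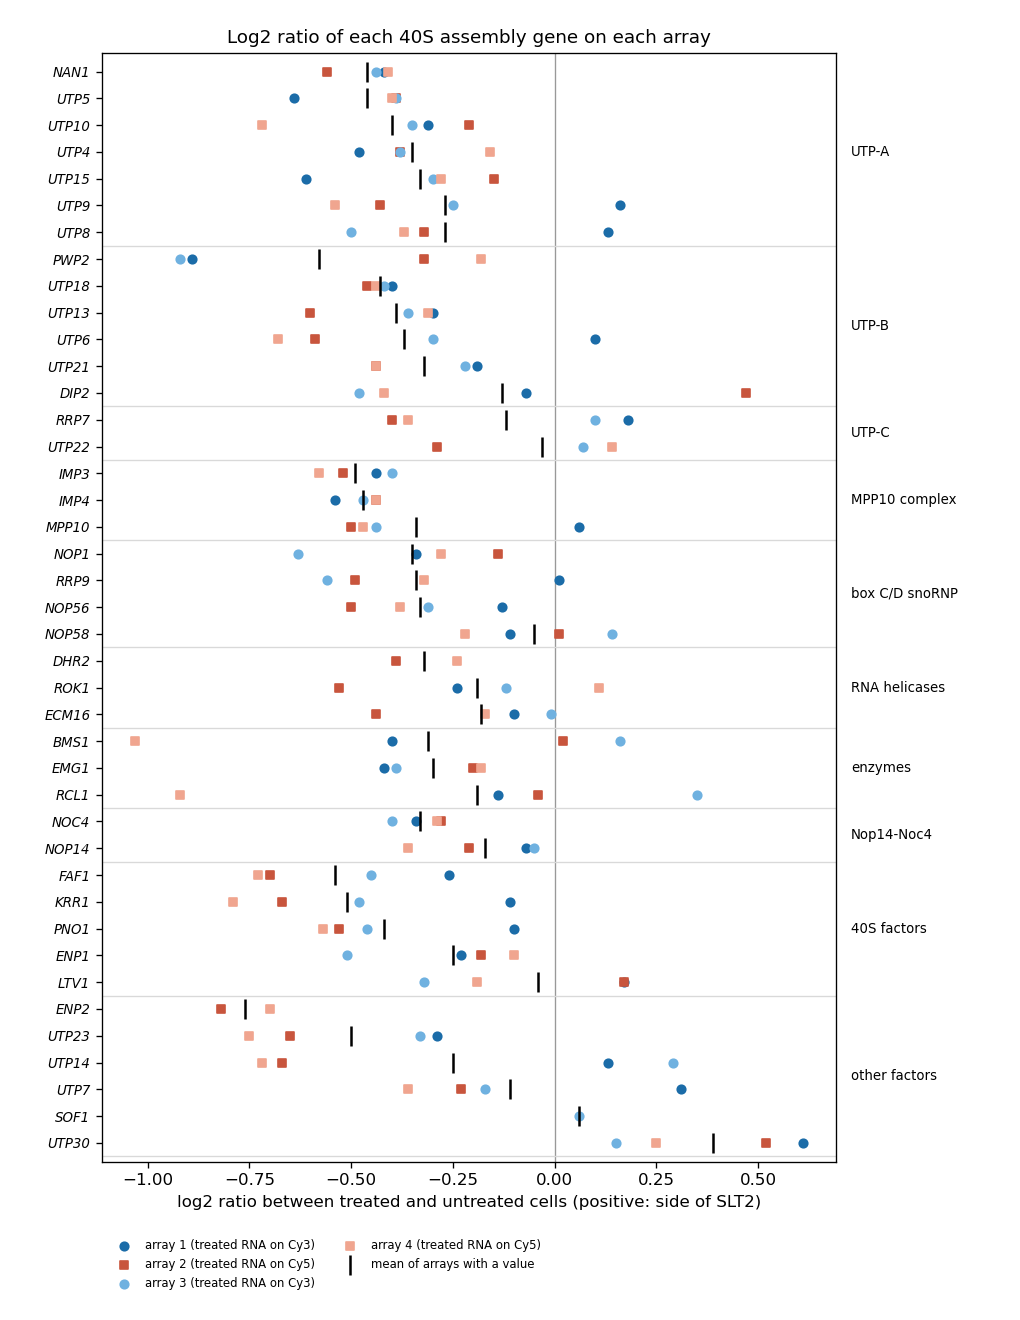
Log2 ratio (horizontal axis, positive on the side of SLT2) of the 41 genes with at least 1 value, grouped by role, with circles for arrays with treated RNA on Cy3, squares for those with it on Cy5, and a black tick for the mean. Most points lie left of 0, and UTP30 is the gene with all 4 points to the right of 0.

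The 3 genes past the test were PWP2, FAF1 and UTP23. PWP2 (YCR057C), which encodes a WD-repeat protein of the UTP-B module, had -0.89, -0.32, -0.92 and -0.18 on arrays 1 to 4. It was lowest on the arrays with treated RNA on Cy3, and the Cy5 arrays did not overlap with them. Its mean was -0.58 ± 0.38 (SD of 4 arrays, n = 2 cultures), a 1.49-fold difference (adjusted p = 0.0282 in limma).

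FAF1 (YIL019W), whose product binds the assembly factor Krr1, had -0.26, -0.70, -0.45 and -0.73. Here the Cy5 arrays were the lower, the reverse of PWP2. The mean was -0.54 ± 0.22, a 1.45-fold difference (adjusted p = 0.0392 in limma). UTP23 (YOR004W), which encodes a PIN-domain protein tied to the release of the small nucleolar RNA snR30, had -0.29, -0.65, -0.33 and -0.75, in the same order by dye as FAF1. Its mean was -0.50 ± 0.23, a 1.42-fold difference (adjusted p = 0.0494 in limma).

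Each of these calls ended under some settings. With arrays centred on their medians the adjusted p in limma was 0.0573 for PWP2, 0.0661 for FAF1 and 0.0739 for UTP23. Fits to 3 arrays with a dye term treated the arrays as independent, although 2 of them share a culture. They thus differ from the test above by more than the array left out. The same kind of fit to 4 arrays gave an adjusted p in limma of 0.0107 for PWP2, 0.0149 for FAF1 and 0.0161 for UTP23. In the fits to 3 arrays, PWP2 missed the threshold without array 2 (0.0740). FAF1 missed it without array 2 (0.0762), array 3 (0.0540) and array 4 (0.0819), and UTP23 without array 1 (0.0558), array 2 (0.0790), array 3 (0.0561) and array 4 (0.114). The means kept their sign in all of these fits, between -0.61 and -0.48. Over all alternatives the adjusted p in limma ran from 0.000267 to 0.0835 for PWP2, from 0.000449 to 0.0819 for FAF1 and from 0.000658 to 0.114 for UTP23, the lowest in each case with array 1 paired to array 4.

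**Figure D2:**
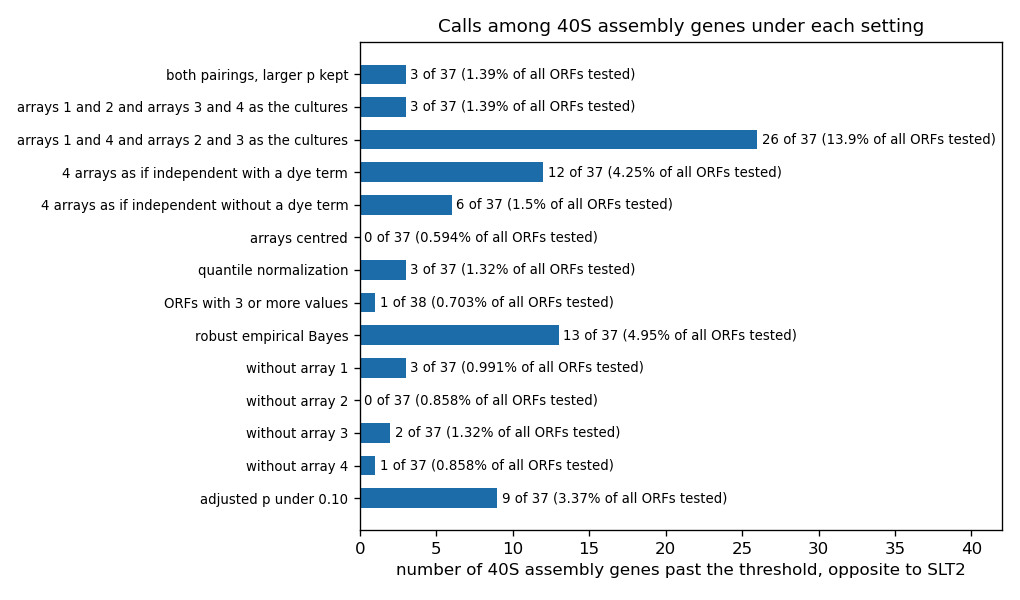
Number of genes of the group past the threshold opposite to SLT2 (horizontal axis) under each setting (vertical axis), with the share of all ORFs tested that passed in the same direction beside each bar. The count runs from 0 to 26.

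The UTP-A module binds the first stretch of the precursor and is the earliest to arrive. All 7 of its genes had means below 0, with a median of -0.35. In limma 0 of 7 passed the test, where 1.39% of all ORFs tested did opposite to SLT2. At an unadjusted p under 0.05, 5 lay opposite to SLT2, against 9.00% of all ORFs tested. NAN1 (YPL126W), also known as UTP17, had -0.46 ± 0.07. UTP5 (YDR398W) had -0.46 ± 0.12, and UTP10 (YJL109C), the gene of a very large repeat protein, had -0.40 ± 0.22. UTP4 (YDR324C) had -0.35 ± 0.13 and UTP15 (YMR093W), another WD-repeat protein gene, had -0.33 ± 0.19. These 5 genes were below 0 on each array. UTP9 (YHR196W, -0.27 ± 0.31) and UTP8 (YGR128C, -0.27 ± 0.28) were not, with 0.16 and 0.13 on array 1 and negative values on the other arrays. The product of UTP8 is also known for a part in the export of tRNA from the nucleus.

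The UTP-B module follows UTP-A on the precursor and joins it to U3. Its 6 genes had a median of -0.38, and PWP2 was past the test. At an unadjusted p under 0.05 in limma, 5 lay opposite to SLT2, against 9.00% of all ORFs tested. UTP18 (YJL069C) was the most even of all genes in the group, with -0.40, -0.46, -0.42 and -0.44 on arrays 1 to 4. That gave -0.43 ± 0.02 (adjusted p = 0.0777 in limma), which missed the threshold. UTP13 (YLR222C) had -0.39 ± 0.14 and UTP21 (YLR409C) had -0.32 ± 0.14, both with 4 negative values. UTP6 (YDR449C) had 0.10 on array 1 and from -0.68 to -0.30 on the others. DIP2 (YLR129W), also known as UTP12, had -0.07, 0.47, -0.48 and -0.42, so its mean of -0.13 ± 0.44 covers arrays of opposite sign.

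The 2 genes of the UTP-C module in the group had little shift. RRP7 (YCL031C) had 0.18 on array 1 and 0.10 on array 3, against -0.40 on array 2 and -0.36 on array 4. Its sign followed the dye, and its mean was -0.12 ± 0.30. UTP22 (YGR090W) had -0.29, 0.07 and 0.14 on arrays 2, 3 and 4 and no value on array 1. In a limma fit that also took ORFs with 3 values, averaging the arrays at hand, it had -0.04 with adjusted p = 0.959.

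In the Mpp10 complex, IMP3 and IMP4 were among the most even genes of the group, and MPP10 was not. The proteins Imp3 and Imp4 are known to help U3 pair with the precursor, and Mpp10 holds them together. IMP3 (YHR148W) had -0.44, -0.52, -0.40 and -0.58, with a mean of -0.49 ± 0.08 (adjusted p = 0.0560 in limma). IMP4 (YNL075W) had -0.54, -0.44, -0.47 and -0.44, with a mean of -0.47 ± 0.05 (adjusted p = 0.0603 in limma). Both lay below 0 by more than the SD of their 4 arrays, and both missed the threshold. The test rests on culture averages, so that SD is not the spread it measures. MPP10 (YJR002W) had -0.50, -0.44 and -0.47 on arrays 2, 3 and 4 but 0.06 on array 1, and a mean of -0.34 ± 0.27. None of the 3 genes passed in limma. All 3 lay opposite to SLT2 at an unadjusted p under 0.05, against 9.00% of all ORFs tested.

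The box C/D proteins are the shared core of the small nucleolar ribonucleoproteins that guide methylation of ribosomal RNA, of which U3 is a special member that guides cleavage. NOP1 (YDL014W), the gene of the methyltransferase known as fibrillarin in animals, had -0.35 ± 0.21. NOP56 (YLR197W) had -0.33 ± 0.16, and both genes were negative on each array. Their partner NOP58 (YOR310C), which encodes a relative of Nop56, had -0.11, 0.01, 0.14 and -0.22 and a mean of -0.05 ± 0.16. The mean difference of NOP58 from 0 was smaller than the spread of its arrays, and a fit without array 1 gave 0.02. RRP9 (YPR137W), whose product binds U3 alone among these RNAs, had 0.01 on array 1, from -0.56 to -0.32 elsewhere and a mean of -0.34 ± 0.25. Of the 4 genes 0 passed in limma. At an unadjusted p under 0.05, 3 lay opposite to SLT2, against 9.00% of all ORFs tested.

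Among other enzyme genes of the particle, BMS1 and RCL1 differed widely between arrays, as did UTP14 and DIP2 elsewhere in the group. BMS1 (YPL217C), which encodes a GTPase, had -0.40, 0.02, 0.16 and -1.03 on arrays 1 to 4. RCL1 (YOL010W), whose product is carried into the particle by Bms1, had -0.14, -0.04, 0.35 and -0.92. Both genes were lowest on array 4 and highest on array 3, and their means of -0.31 ± 0.54 and -0.19 ± 0.53 were smaller than the spread between arrays. Without array 4 the fit gave -0.05 for BMS1 and 0.03 for RCL1. EMG1 (YLR186W), the gene of a methyltransferase that modifies the small subunit RNA, was steadier, with -0.30 ± 0.12 and 4 negative values.

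Of the 3 RNA helicase genes of the group, 2 had 4 values. Neither passed the test in limma, and both had means nearer to 0 than the group median. Dhr1, the product of ECM16 (YMR128W), is known to unwind U3 from the precursor. ECM16 had -0.10, -0.44, -0.01 and -0.17, and a mean of -0.18 ± 0.18. ROK1 (YGL171W), whose helicase releases snR30, had -0.24, -0.53, -0.12 and 0.11, and a mean of -0.19 ± 0.27. DHR2 (YKL078W) had -0.39 and -0.24 on arrays 2 and 4 and no value on the others, so dye and treatment cannot be told apart for it.

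NOC4 (YPR144C) and NOP14 (YDL148C) encode partners that bind each other and are needed for maturation of the small subunit. NOC4 had -0.34, -0.28, -0.40 and -0.29, with a mean of -0.33 ± 0.05. NOP14 had -0.17 ± 0.14. Both were negative on each array, and neither passed in limma (adjusted p = 0.172 and 0.502).

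Another 5 assembly factors of the small subunit, some early and some late, had a median of -0.42, with FAF1 past the test. KRR1 (YCL059C), an RNA-binding partner of Faf1, had -0.11, -0.67, -0.48 and -0.79, the third-lowest mean of the 37 at -0.51 ± 0.30 (adjusted p = 0.0576 in limma). PNO1 (YOR145C), also known as DIM2, had -0.10 on array 1 and from -0.57 to -0.46 on the others, and a mean of -0.42 ± 0.21. ENP1 (YBR247C) had -0.25 ± 0.18 with 4 negative values. LTV1 (YKL143W), which is known as an export factor of the small subunit and is not needed for life, had 0.17, 0.17, -0.32 and -0.19. Its mean of -0.04 ± 0.25 lay within the spread of its arrays.

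The remaining genes varied widely, and 3 of the 4 with 4 values had a mean below 0. ENP2 (YGR145W), with values on arrays 2 and 4 only, had -0.82 and -0.70, and the orientation with treated RNA on Cy3 gave no value. SOF1 (YLL011W) had 0.06 on array 3 alone. UTP14 (YML093W), whose product activates the helicase Dhr1, had 0.13 on array 1 and 0.29 on array 3, against -0.67 on array 2 and -0.72 on array 4. That is the widest gap between dyes in the group, and its mean of -0.25 ± 0.52 averages opposite signs. UTP7 (YER082C) had 0.31 on array 1, from -0.36 to -0.17 on the others, and a mean of -0.11 ± 0.29.

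UTP30 (YKR060W) stood on the side of SLT2. It encodes a protein related to a ribosomal protein of the large subunit, and yeast can live without it. It had 0.61, 0.52, 0.15 and 0.25 on arrays 1 to 4, and was the one gene of 37 above 0 on each array, where 13.1% of all ORFs tested were. Its mean was 0.39 ± 0.22 (adjusted p = 0.157 in limma), which did not pass. It passed with array 1 paired to array 4 and array 2 to array 3 (adjusted p = 0.00407 in limma) and with robust empirical Bayes (0.0342), and over all alternatives the adjusted p in limma ran from 0.00407 to 0.369. The next highest mean among the 37 genes was that of LTV1.

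The size of the shift differed between arrays. The median of the 37 genes was -0.19 on array 1, -0.40 on array 2, -0.36 on array 3 and -0.38 on array 4, while over all ORFs tested it was 0.04, -0.03, -0.04 and -0.04. Of the 37 genes, 27 were below 0 on array 1, 32 on array 2, 31 on array 3 and 35 on array 4. Over all ORFs tested these shares were 46.0%, 54.3%, 57.0% and 54.3%. The mean of the Cy3 arrays minus that of the Cy5 arrays had a median of 0.13 in the group and of -0.01 over all ORFs tested, and it was above 0 for 25 of the 37 genes and for 2229 of the 4543 ORFs.

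In 6 of the 37 genes the 2 orientations had opposite signs, as they had in 2148 of the 4543 ORFs. These were UTP14, RRP7, RCL1, UTP7, DIP2 and NOP58. PWP2 had -0.90 on Cy3 and -0.25 on Cy5. The part of dye in these results was not tested beyond the averaging of swapped pairs. The order of the 37 genes was little shared between arrays. Across these genes, which are not independent replicates, Pearson's r between arrays ran from -0.14 for arrays 3 and 4 to 0.46 for arrays 1 and 3, and Spearman's rho from -0.05 to 0.41. Over all ORFs tested Pearson's r ran from 0.09 to 0.75.

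**Figure D3:**
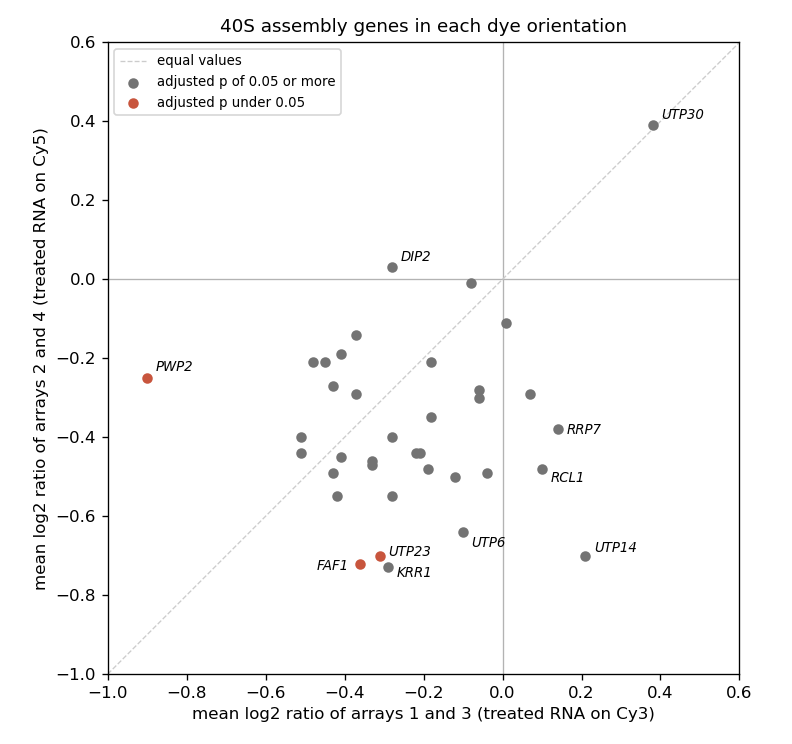
Mean log2 ratio of the arrays with treated RNA on Cy3 (horizontal axis) against that of the arrays with it on Cy5 (vertical axis) for the 37 genes with 4 values, 1 point for each gene, with the genes past the test in red and equal values on the dashed line. Most genes lie in the lower left, UTP30 in the upper right, and UTP14, RRP7, RCL1, UTP7 and NOP58 lie below 0 on the vertical axis alone.

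Other genes of ribosome production were set beside the group from lists named by function. Of 40 other 40S assembly factors with 4 values, 1 lay opposite to SLT2 past the test and 0 on its side, with a median of -0.31 and 38 means below 0. The one was NOP9 (-0.55 ± 0.22), the gene of an RNA-binding protein of the same particle. FAL1, a helicase gene, had -0.52 ± 0.20 and did not pass, and the highest were CKB2 (0.12 ± 0.47), a subunit gene of casein kinase II, and UTP11 (0.18 ± 0.35). Of 55 assembly factors of the large 60S subunit, 5 lay opposite past the test and 0 on the side of SLT2, with a median of -0.31 and all 55 means below 0. MAK21 (-0.63 ± 0.45), YTM1 (-0.58 ± 0.09), RSA4 (-0.54 ± 0.43), HAS1 (-0.54 ± 0.24) and IPI1 (-0.51 ± 0.09) were those past the test, and NUG1 (-0.07 ± 0.17) and PUF6 (-0.01 ± 0.25) had the highest means. The shares past the test were 8.11% for the SSU processome group, 2.50% for the other 40S factors and 9.09% for the 60S factors. These shares rest on 3, 1 and 5 genes. At an unadjusted p under 0.05 in limma, 22 of 37, 22 of 40 and 33 of 55 lay opposite to SLT2, in that order. Over all ORFs tested that share was 9.00%. Below 0 on each array were 22, 16 and 30 genes of these lists, against 15.3% of all ORFs tested.

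RNA polymerase I, which transcribes the precursor, and its initiation factors had a median of -0.29. By limma 0 of 11 genes passed, and 6 lay opposite to SLT2 at an unadjusted p under 0.05, against 9.00% of all ORFs tested. Of the 11, 7 were below 0 on each array, against 15.3% of all ORFs tested. RPA135 had -0.48 ± 0.44 and RPA43 -0.45 ± 0.13, whereas the initiation factor genes RRN9 (0.01 ± 0.42) and UAF30 (0.01 ± 0.36) were highest. Protein genes of the finished 40S subunit had a median of -0.13. By limma 0 of 53 passed, and 1 lay opposite to SLT2 at an unadjusted p under 0.05. Of the 53, 9 were below 0 on each array. RPS21A (-0.31 ± 0.20) and RPS27A (-0.28 ± 0.20) were lowest, and RPS26A (0.02 ± 0.33) and RPS15 (0.04 ± 0.34) highest. The array medians of these ribosomal protein genes ran from -0.31 on array 4 to 0.16 on array 1, so they changed sign between arrays, while those of the assembly group were negative on all 4. The differences between lists were not tested. Of 19 genes of meiosis and sporulation, another state of yeast cells, 6 had a value and 1 had 4 values, DMC1 with 0.06 ± 0.23.

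**Figure D4:**
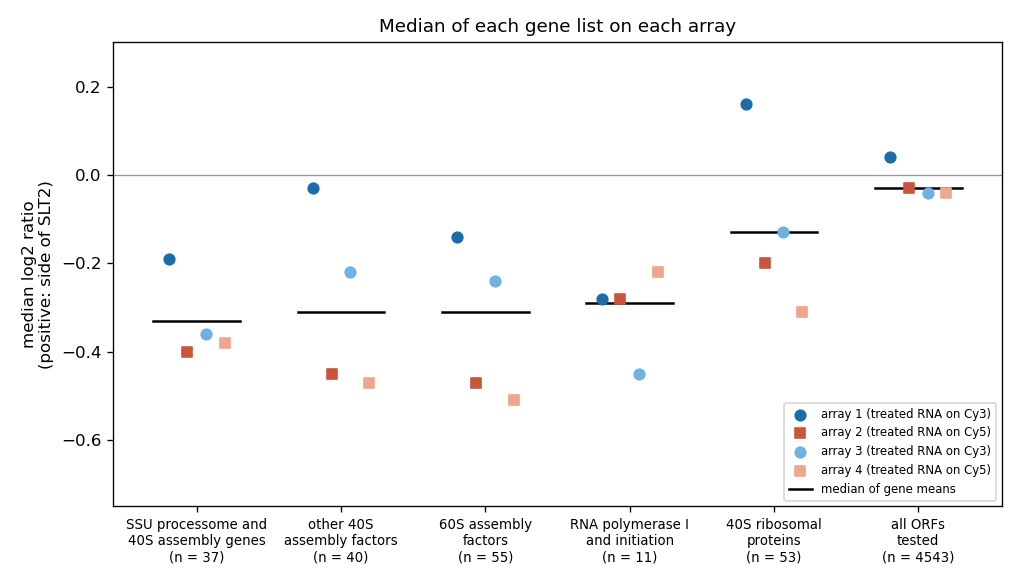
Median log2 ratio of each gene list on each array (vertical axis, positive on the side of SLT2), with circles for arrays with treated RNA on Cy3, squares for those with it on Cy5, a black line for the median of the gene means, and the number of genes with 4 values under each name. The SSU processome group is below 0 on all 4 arrays, and array 1 gives its median nearest to 0.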

How the data were processed

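Two-colour arrays compared Zymolyase-treated with untreated cells on 4 arrays. Per the labels, RNA came from 2 cultures with a dye swap each. The authors deposited a table of log ratios, taken here as log2, with base, normalization, background correction, filters and numerator not given in the sources used here. Values of opposite dye orientation correlated below 0 as deposited (r from -0.52 to -0.08), so signs were turned by dye and set by SLT2. Spot intensities were not used here, which leaves signal over background unknown, and precision is limited by how few arrays there are. Of 6209 rows, 2 controls were left out, and 5654 of 6207 ORF rows took names from RefSeq assembly R64. Probes were not used here, so overlapping ORFs may share signal.

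limma 3.58.1 (R 4.3.3; lmFit, eBayes) was fitted to 4543 ORFs with 4 values as described above and checked on simulated data. Values are means ± SD of 4 arrays, in which arrays of a culture are technical repeats. The genes, lists and tests were chosen with earlier results of these data known. By rule every gene of the group was named, with array values for those past the threshold, the 3 lowest and 3 highest means and genes with 1 to 3 values, and of each other list the 2 lowest and 2 highest and up to 4 past the threshold (IPI1 was added). Array values of other genes were chosen after being seen. A planned search of promoters for motifs was not run here. Alternatives were each pairing alone, robust empirical Bayes, centring, ORFs with at least 3 values, quantile normalization and an adjusted p under 0.10. Others were arrays treated as independent (dye term in or out) and leaving out each array. The latter took the 3 arrays as independent, with a dye term.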

Additional observations from a re-analysis of the deposited data

Results flagged for a closer look

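In 3 of the 37 genes with 4 values, a single array lay apart from the rest relative to the range of the 4 values. A small gap can be marked this way where the other values are close together. NAN1 had -0.56 on array 2 and from -0.44 to -0.41 elsewhere. UTP5 had -0.64 on array 1 and from -0.40 to -0.39 elsewhere. MPP10 had 0.06 on array 1 and from -0.50 to -0.44 elsewhere. About 1 in 20 sets of 4 independent, normally distributed values is marked so by chance alone. The share marked over all ORFs tested is not given here.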

How the results depend on the processing

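The median over the group stayed between -0.37 and -0.30 in all settings run. Each pairing alone, arrays as independent, robust empirical Bayes and the looser threshold all keep the mean of 4 arrays. Their median of -0.33 and their 36 estimates below 0 were thus fixed in advance. Only centring, quantile normalization, taking in ORFs with 3 values and leaving out an array could move these. From 32 to 36 of the 37 genes had an estimate below 0, and 37 of 38 did with ORFs of 3 or more values. Over all ORFs tested the share was 56.7% for the means of 4 arrays, and it is not given for the other settings. The number below 0 on 4 arrays was 22 as deposited, centred and quantile normalized, where 15.3%, 13.8% and 15.8% of all ORFs tested were. These counts and the counts at an unadjusted p, from 17 to 29 opposite to SLT2, were added after seeing the data. In the setting that gave 17, 299 of all 4543 ORFs tested lay opposite at an unadjusted p under 0.05 in limma. In the setting that gave 29, 981 did. The number past the threshold was less stable. Opposite to SLT2 it was 26 with array 1 paired to array 4 and array 2 to array 3, where 13.9% of all ORFs tested passed. It was 13 with robust empirical Bayes (4.95% of all ORFs) and 12 for 4 independent arrays with a dye term (4.25%). Without that term it was 6 (1.5%), and at an adjusted p under 0.10 it was 9 (3.37%). It was 0 with arrays centred and 1 of 38 with ORFs of 3 or more values, where 0.594% and 0.703% of all ORFs passed. With arrays centred, 22 lay opposite at an unadjusted p under 0.05 in limma, against 379 of all 4543 ORFs. On the side of SLT2 the number past the threshold was 1, UTP30, with array 1 paired to array 4 and with robust empirical Bayes. Leaving out 1 array gave from 0 to 3 opposite. The count was 3 without array 1 (0.991% of all ORFs tested) and 0 without array 2 (0.858%). It was 2 without array 3 (1.32%) and 1 without array 4 (0.858%). The fit without array 2 had 18 opposite at an unadjusted p under 0.05 in limma, against 356 of all 4543 ORFs. The same kind of fit to 4 arrays gave 12 past the threshold (4.25% of all ORFs). Of the genes PWP2, FAF1 and UTP23, 1 was kept for 4 independent arrays without a dye term. Leaving out 1 array also turned the sign of 5 genes that passed in no setting. Their estimates ran from -0.41 to 0.03 for RCL1, from -0.35 to 0.10 for DIP2, from -0.23 to 0.01 for UTP7, from -0.11 to 0.02 for NOP58 and from -0.17 to 0.08 for LTV1. The cause of these changes was not tested. Signal over background is unknown, so the limits of dim spots could not be set.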

Other observations

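None of the genes of the group lies next to another in the gene order of RefSeq assembly R64, but 4 lie next to a gene of another list for ribosome production. RIX1, a 60S assembly gene beside UTP9 (-0.27), had -0.25 ± 0.06. RSA3, beside UTP13 (-0.39), had -0.24 ± 0.36, and RRP15, beside NOC4 (-0.33), had -0.28 ± 0.34. RPS18A, which is transcribed away from UTP6 (-0.37), had -0.19 ± 0.22. None of these 4 neighbours passed the test in limma.

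Over all 68 neighbours outside the group with 4 values, these 4 included, the median was -0.05, against -0.03 over all ORFs tested. Of the 68, 3 were past the test opposite to SLT2 and 3 on its side, where 1.39% and 4.56% of all ORFs tested were. YSP3, upstream of UTP23 on the same strand, had 0.55 ± 0.33 and PLB3, beside RCL1, had 0.64 ± 0.29, both on the side of SLT2. ECL1, which is transcribed towards ENP2, had 1.38 ± 0.58 on that side, while ENP2 had -0.82 and -0.70 on its 2 arrays. On the opposite side were HIS4 beside RRP7 (-0.75 ± 0.24), ZRT2 beside DIP2 (-0.65 ± 0.50) and ASN1 beside NOC4 (-0.63 ± 0.32).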
